A study of Rattus norvegicus with 8 samples.

Results

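Glutathione S-transferases join the tripeptide glutathione to electrophilic compounds, which makes them more soluble and less reactive. The soluble enzymes fall into classes named by Greek letters, and a separate group sits in membranes. In the kidney, alpha-class enzymes are abundant in proximal tubule cells, and their protein in urine has served as a sign of injury to that segment. The glutathione conjugates are carried out of the cell by ABC transporters and trimmed by brush-border enzymes into mercapturates. Many of these genes respond to NRF2 (Nfe2l2), the transcription factor of the response to oxidants and electrophiles, which KEAP1 holds in check.

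The 9 rat genes described here were taken by name and class, and their probes were found by RefSeq accession among the non-control probes of the array. They are Gsta1, Gsta2, Gsta3 and Gsta4 of the alpha class, Gstm1 and Gstm2 of the mu class, Gstp1 of the pi class, Gstk1 of the kappa class and the microsomal Mgst1. All 9 were on the array, with 10 probes in all. All 9 passed the filter on dim probes, which 12411 of 15637 named genes did, and each was well above background on all 8 arrays. Names of alpha-class genes have changed over the years. Here Gsta1 is the gene of NM_031509, once called Yc1 or Gsta3, Gsta2 is that of NM_017013 and Gsta3 that of NM_001009920, once called Yc2.

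The study compared 2 groups of 4 kidney samples from male rats, with a labelled age of 10 weeks and a labelled day of 28. Controls were given saline, and the treated group was given 30 mg/kg of colistin, a polymyxin antibiotic known to injure renal tubules. The study's title speaks of injured tubules while the sample labels give kidney as the tissue, and no strain, route or dosing schedule is named. Labelled cDNA of each sample was read on 1 one-colour Agilent array. Since no label ties each sample to its own rat, every p-value reflects the spread among these 8 samples, which may be technical.

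The saline arrays were dimmer, with a 75th percentile of processed signal of 156 to 197 against 271 to 317 on the colistin arrays. Levels are therefore given as log2 signal relative to the 75th percentile of the same array, and a fold change is the colistin mean minus the saline mean on that scale. Markers of kidney segments were present in both groups, and all 15 proximal tubule markers were well above background on all 8 arrays. Of 12411 genes tested, 248 changed, or 2.00%, with 1.46% higher and 0.540% lower after colistin (limma with Benjamini-Hochberg adjustment over all genes, adjusted p under 0.05). The median log2 fold change over all genes was -0.14, and every fold change below is to be read against that shift. Tubular injury was marked by Havcr1 (kidney injury molecule), whose log2 fold change was 4.48 ± 0.48 (SE, as throughout, with n = 4 per group, limma adjusted p = 0.0063). With 8 arrays, precision is limited by their number.

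None of the 9 genes passed in limma, against 2.00% of all genes, and 5 of the 9 had an unadjusted p under 0.05, against 22.7% of all genes. Their log2 fold changes ran from -1.49 for Gsta1 to 3.88 for Gstm1, with estimates of both signs. All 4 alpha-class genes and Gstm2 and Gstk1 had negative fold changes, and Gstm1, Gstp1 and Mgst1 had positive ones. The colistin and saline arrays did not overlap in Gstm1 and Gstp1, where colistin was higher, nor in Gsta1 and Gsta3, where it was lower. Those 4 of 9 compare with 18.6% of all genes tested, made up of 6.89% with colistin above saline and 11.7% with colistin below. The median log2 fold change of the 9 genes was -0.58, and 54.9% of all genes had a negative one.

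**Figure D1:**
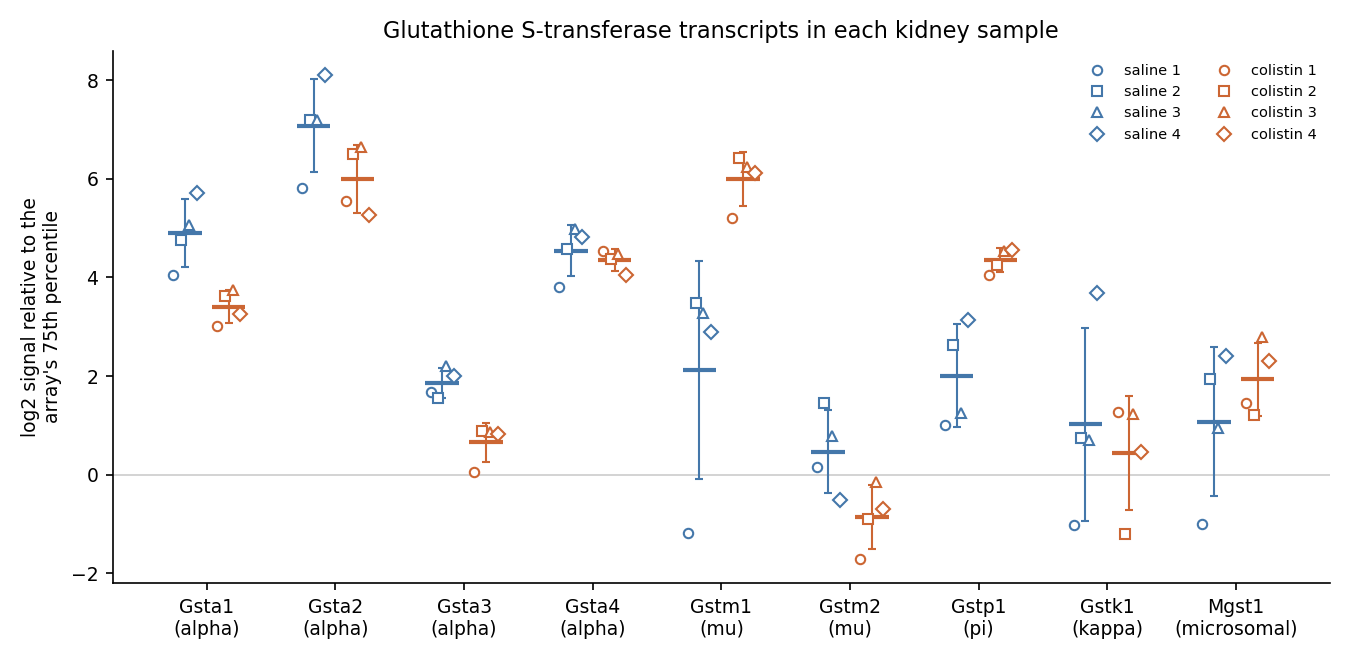
Log2 signal relative to the array's 75th percentile (vertical axis) for each of the 9 genes on the 4 saline (blue) and 4 colistin (orange) arrays. Each symbol is 1 array, horizontal bars are group means and vertical bars are ± 1 SD. Gstm1 and Gstp1 are higher on every colistin array than on any saline array, and Gsta1 and Gsta3 are lower. Levels of different genes come from different probes and are not comparable.

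Gstp1 encodes the pi-class enzyme, known in rat liver as a marker of preneoplastic foci. Its log2 level on saline arrays 1 to 4 was 1.001, 2.63, 1.25 and 3.14, and on colistin arrays 1 to 4 it was 4.05, 4.26, 4.54 and 4.56. Every colistin array was thus above every saline array, and the colistin arrays lay within 0.51 of each other against a saline range of 2.14. Before scaling, the processed signal was 312, 1191, 469 and 1374 units on saline arrays and 5057, 5872, 6302 and 7494 on colistin arrays. So the groups were also apart before scaling, but the colistin arrays were brighter, which widens any rise in unscaled signal. The log2 fold change was 2.35 ± 0.52, or 5.09-fold, with a 95% interval of 1.15 to 3.54 (limma adjusted p = 0.0693). Within slides 1, 2 and 3, which each held both groups, Gstp1 differed by 2.19, 1.91 and 3.05. A block for slide gave 2.43 ± 0.58 (limma adjusted p = 0.16). Of the 8 fits that left out 1 array it passed in 1, that without saline array 4 (2.72, limma adjusted p = 0.0368). The highest limma adjusted p of these fits was 0.159. With normexp background correction Gstp1 passed (2.34, limma adjusted p = 0.0257), in a setting where 3390 of 12411 genes were called. It also passed with quantile normalization (limma adjusted p = 0.046) and with array weights (limma adjusted p = 0.0317).

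Gstm1 encodes a mu-class subunit long called Yb1 in the rat. Its log2 level on saline arrays 1 to 4 was -1.18, 3.48, 3.27 and 2.89, and on colistin arrays 1 to 4 it was 5.20, 6.43, 6.24 and 6.12. The groups did not overlap, and saline array 1 lay far below the other saline arrays. The processed signal was 69.0 units on that array against 1159 to 2135 on the other saline arrays and 11245 to 26479 on the colistin arrays. The log2 fold change was 3.88 ± 1.005, with a 95% interval of 1.57 to 6.19 (limma adjusted p = 0.0953). Without saline array 1 the fold change was 2.78 and passed (limma adjusted p = 0.0299), with an SE of 0.40. Of the 8 fits that left out 1 array this was the only 1 that passed. The highest limma adjusted p among them was 0.196. Within slides 1, 2 and 3 the difference was 5.57, 2.76 and 2.39, slide 1 being the one that held saline array 1. A block for slide gave 3.65 ± 1.10 (limma adjusted p = 0.203).

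The sequences before the start sites of these genes are shown because Gstm1 and Gstp1 had the largest positive fold changes of the 9, a choice made after the values were seen. They were taken from RefSeq on the rat build GRCr8 and cover the 250 bases before the annotated start of each gene, on the minus strand, at chr2:198343384-198343633 for Gstm1 and chr1:210769706-210769955 for Gstp1. Capitals mark the core of the antioxidant response element, TGACNNNGC, which NRF2 binds, and the AP-1 element, TGANTCA, both searched on both strands.
Gstm1: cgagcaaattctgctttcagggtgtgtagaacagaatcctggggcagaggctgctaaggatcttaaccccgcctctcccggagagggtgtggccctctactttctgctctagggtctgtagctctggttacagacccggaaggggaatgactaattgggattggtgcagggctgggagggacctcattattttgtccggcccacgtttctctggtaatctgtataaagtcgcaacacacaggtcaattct
Gstp1: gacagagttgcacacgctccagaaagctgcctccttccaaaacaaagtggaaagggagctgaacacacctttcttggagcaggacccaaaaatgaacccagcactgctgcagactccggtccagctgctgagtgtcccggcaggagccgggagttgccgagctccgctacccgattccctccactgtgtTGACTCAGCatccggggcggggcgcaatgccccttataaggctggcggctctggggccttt

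In Gstp1 both motifs overlapped in the single run TGACTCAGC, whose first base lay 61 bases before the start, and the Gstm1 window held neither. Over the RefSeq windows of 300 bases, which run from 250 bases before to 50 after a start, the antioxidant core occurred in 4 of the 9 genes (Gstp1, Gsta1, Gsta2 and Gsta3) and in 12.1% of all 33469 windows. The AP-1 element occurred in Gstp1 and Mgst1 and in 7.33% of all windows. In all 6 motifs were searched, and the other 4 are not marked. The TATA box TATAAA occurred in 2 of the 9 genes (Gsta1 and Gstm1) against 14.2% of windows, and the GC box GGGCGG in 4 against 33.1%. The xenobiotic response element core GCGTG occurred in 4 against 29.7%, and the HNF1 site in 0. The HNF1 pattern searched occurred in only 0.00299% of all windows, so its absence from the 9 genes says nothing about HNF1 sites in them. A match of letters is a description and does not show that a factor binds there.

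Gsta1 encodes an alpha-class subunit. Its log2 level on saline arrays 1 to 4 was 4.05, 4.75, 5.06 and 5.71, and on colistin arrays 1 to 4 it was 3.01, 3.62, 3.74 and 3.25. All colistin arrays were below all saline arrays. The log2 fold change was -1.49 ± 0.41, or 2.81-fold lower, with a 95% interval of -2.43 to -0.55 (limma adjusted p = 0.106). Within slides 1, 2 and 3 the difference was -1.26, -1.01 and -1.94, while a block for slide gave -1.44 ± 0.48 (limma adjusted p = 0.232). The unscaled signals did overlap, at 2582 to 8175 units on saline and 2454 to 3771 on colistin arrays. So Gsta1 was separated only after each array was scaled, but the colistin arrays were brighter, which narrows any fall in unscaled signal.

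Gsta3, known in the rat as a subunit that conjugates the epoxide of aflatoxin B1, had log2 levels of 1.68, 1.55, 2.20 and 2.00 on saline arrays 1 to 4. On colistin arrays 1 to 4 the levels were 0.051, 0.88, 0.86 and 0.82, all below the saline arrays, with colistin array 1 the lowest. The log2 fold change was -1.20 ± 0.32, with a 95% interval of -1.95 to -0.46 (limma adjusted p = 0.101). Within slides 1, 2 and 3 the difference was -0.96, -0.69 and -1.77, while a block for slide gave -1.18 ± 0.38 (limma adjusted p = 0.223). Its unscaled signals also overlapped, at 500.05 to 905 units on saline and 316 to 566 on the brighter colistin arrays. A dimmer probe of the same gene gave -1.30 ± 0.48 (limma adjusted p = 0.156 over 23710 probes), the same direction. With normexp both Gsta1 (-1.32, limma adjusted p = 0.0324) and Gsta3 (-1.03, limma adjusted p = 0.0321) passed. In that setting 3390 of 12411 genes were called, 2706 of them lower.

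Gsta1 and Gsta3 are neighbours on chromosome 9, and their start regions share a stretch that holds the antioxidant core, which is why it is shown. The 30 bases around it are shown, in capitals for the core, from chr9:31216491-31216520 on the minus strand for Gsta1 and chr9:31154954-31154983 on the plus strand for Gsta3 (GRCr8, RefSeq).
Gsta1: tgtttagcaactcaggcaTGACTTTGCatt
Gsta3: tcttaagcaactcaggcaTGACTTCGCatt
Of the 30 bases 27 were identical, and the differences, with the Gsta1 base first and positions counted from the 5′ end of the stretch, were G2C, T5A and T25C. The core began 17 bases before the annotated start of Gsta3 and 30 bases after that of Gsta1.

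Gsta2, another alpha-class subunit, had log2 levels of 5.82, 7.19, 7.20 and 8.11 on saline arrays 1 to 4. On colistin arrays 1 to 4 they were 5.55, 6.50, 6.65 and 5.26. The groups overlapped through saline array 1, and the fold change was -1.09 ± 0.56, with a 95% interval of -2.36 to 0.19 (limma adjusted p = 0.276). Gsta4, the alpha-class enzyme with high activity toward the lipid peroxidation product 4-hydroxynonenal, had log2 levels of 3.81, 4.57, 4.98 and 4.82 on saline and 4.53, 4.38, 4.47 and 4.04 on colistin arrays. It gave -0.19 ± 0.34, with a 95% interval of -0.97 to 0.60 (limma adjusted p = 0.761), an interval that holds both signs. With 1 array left out its value lay between -0.43 (without saline array 1) and -0.042 (without saline array 3), with -0.097 without saline array 4 and -0.082 without colistin array 4. Relative to the median of all genes its value was -0.045 in the main setting, while with normexp its fold change of -0.027 lay above that setting's median of -0.34.

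The log2 ratio of a pair of genes on the same array does not depend on a scaling factor of the array, and 7 pairs within the alpha and mu classes were compared, a comparison added after the values were seen. The Gsta1 to Gsta4 ratio was 0.23, 0.18, 0.086 and 0.89 on saline arrays 1 to 4 and -1.52, -0.76, -0.73 and -0.79 on colistin arrays 1 to 4. The groups did not overlap, with a difference of -1.30 ± 0.27 (two-sided exact permutation p = 0.0286, 0.0667 after adjustment over the 7 pairs). The Gsta3 to Gsta4 ratio differed by -1.02 ± 0.33 and also did not overlap (exact permutation p = 0.0286, adjusted 0.0667). For Gsta2 against Gsta4 the difference was -0.90 ± 0.41 (exact permutation p = 0.114, adjusted 0.2). With 4 arrays per group 0.0286 is the smallest p this test can give. After adjustment none of the 7 pairs passed, but a pair at that smallest p could pass only if most of the 7 reached it. The adjusted result therefore says little about any 1 pair. Among Gsta1, Gsta2 and Gsta3 the differences were between -0.40 and 0.12, and those ratios overlapped between groups.

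Gstm2, the other mu-class member, had log2 levels of 0.15, 1.45, 0.79 and -0.51 on saline arrays 1 to 4 and -1.71, -0.90, -0.15 and -0.69 on colistin arrays 1 to 4. The groups overlapped through saline array 4, and the fold change was -1.33 ± 0.52, with a 95% interval of -2.52 to -0.14 (limma adjusted p = 0.187). Within an array the Gstm1 to Gstm2 ratio was -1.33, 2.03, 2.48 and 3.41 on saline and 6.91, 7.33, 6.38 and 6.81 on colistin arrays. These groups did not overlap, with a difference of 5.21 ± 1.05 (exact permutation p = 0.0286, adjusted 0.0667). The unadjusted p was the smallest possible, and the pair did not pass after adjustment either. Without saline array 1 the difference was 4.22. Gstm1 and Gstm2 thus had estimates of opposite sign on the same arrays.

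Gstk1, the kappa-class enzyme of mitochondria and peroxisomes, had log2 levels of -1.03, 0.74, 0.70 and 3.69 on saline and 1.27, -1.21, 1.24 and 0.47 on colistin arrays. Both groups were widely spread, and the fold change of -0.58 ± 1.005 (limma adjusted p = 0.746) turned to 0.30 without saline array 4. It was -1.27 without saline array 1 and -0.034 without colistin array 2. Mgst1, a membrane enzyme of the endoplasmic reticulum and outer mitochondrial membrane, had levels of -1.003, 1.94, 0.94 and 2.40 on saline and 1.45, 1.21, 2.78 and 2.30 on colistin arrays. The groups overlapped, and the log2 fold change of 0.86 ± 0.76 had a 95% interval of -0.88 to 2.61 (limma adjusted p = 0.506). Without saline array 1 it was 0.17, and without saline array 4 it was 1.31.

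Saline array 1 was the lowest saline array in 7 of the 9 genes, where over all genes it was the lowest in 22.3%. Saline array 4 was the highest in 5 of the 9, against 31.8% of all genes. For 8 of the 9 genes the SD was larger in saline than in colistin, with Gsta3 the exception (0.30 against 0.40), and over all genes this held for 67.2%. The SD of Gstp1 was 1.04 in saline and 0.25 in colistin, and that of Gstm1 was 2.21 and 0.54.

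**Figure D2:**
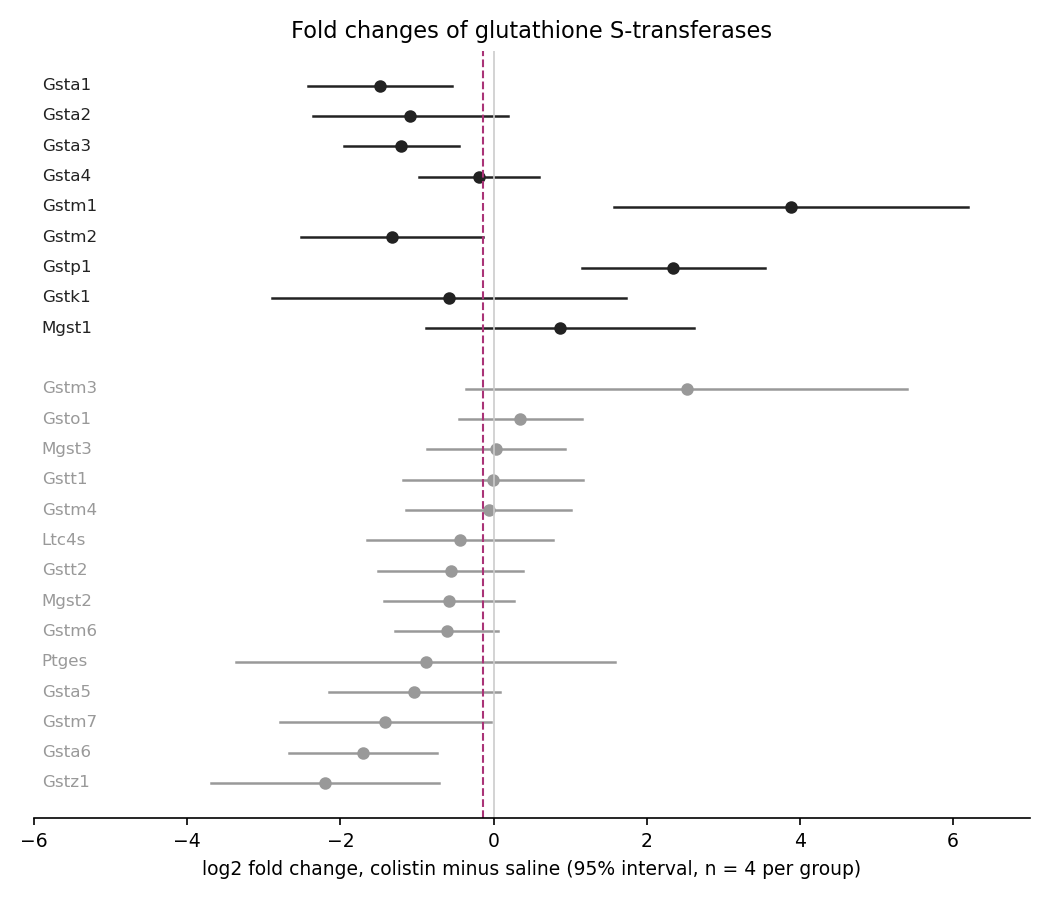
Log2 fold change of colistin minus saline (horizontal axis) with its 95% interval from limma, n = 4 per group. The 9 genes are in black and 14 other glutathione S-transferases and related enzymes in grey, and the dashed line is the median of all genes, -0.14. The intervals of Gstm1 and Gstp1 lie above 0, those of Gsta1, Gsta3 and Gstm2 below 0.

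Of 20 other transferases and related enzymes listed, 18 were on the array and 14 were tested. In limma 0 of the 14 passed, against 2.00% of all genes. An unadjusted p under 0.05 was found for 3, against 22.7% of all genes. Their median log2 fold change was -0.57, and 11 of the 14 were negative, against 54.9% of all genes. Gstz1, which isomerises maleylacetoacetate in tyrosine breakdown, gave -2.20 ± 0.65 (limma adjusted p = 0.123), and the alpha-class Gsta6 gave -1.71 ± 0.42 (limma adjusted p = 0.0868). For both genes the colistin arrays lay below the saline arrays without overlap. This held for 3 of the 14 in all, against 11.7% of all genes. The mu-class Gstm3 gave 2.52 ± 1.25 (limma adjusted p = 0.265), with 2 of the 4 saline arrays well above background, and 0.53 with normexp.

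Set in the order in which RefSeq places them, the genes of a cluster shared a sign in the alpha class and not in the mu class. On chromosome 9 the order Gsta3, Gsta1, Gsta6 gave -1.20, -1.49 and -1.71. On chromosome 8 the order Gsta4, Gsta5, Gsta2 gave -0.19, -1.03 and -1.09, so all 6 alpha-class genes tested were negative. Relative to the median of all genes Gsta4 was at -0.045. On chromosome 2 Gstm1 (3.88) lay between Gstm2 (-1.33) and Gstm4 (-0.065 ± 0.47, above that median), and Gstm3 (2.52) came just before Gstm2. Gstm3 passed the filter on dim probes only through the colistin arrays, so its sign follows partly from the filter. Gstm7, Gstm6 and Gstm6l gave -1.41, -0.61 and -0.51. Gstp3, next to Gstp1 on chromosome 1, gave 1.08 ± 0.57 (limma adjusted p = 0.291). Gstp3 and Gstm6l were outside the lists and were added after their values were seen. These genes are close copies of each other, and a probe may also bind the transcript of a relative, so the share of each gene in its signal is uncertain. Gsta5 and Gsta2 had profiles 0.14 log2 units apart over the 8 arrays (root mean square), a pair named after its value was seen.

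**Figure D3:**
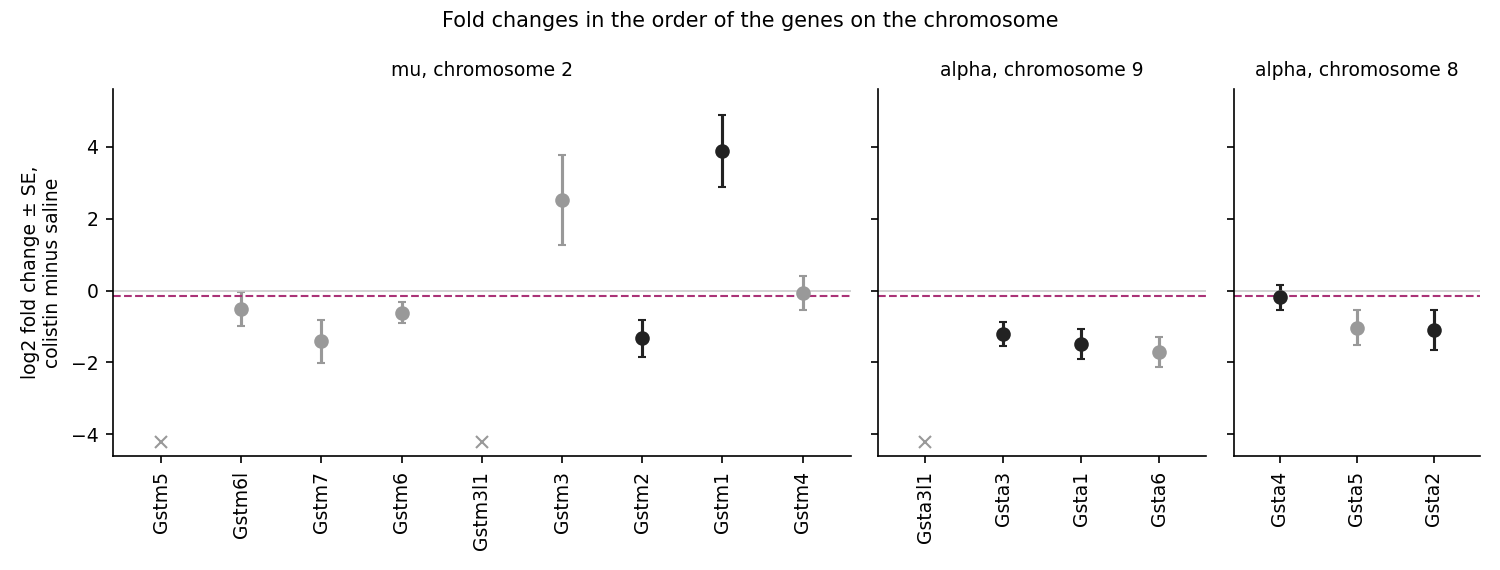
Log2 fold change ± SE of colistin minus saline (vertical axis) for mu-class and alpha-class genes in the order in which they lie on each chromosome (horizontal axis, not to scale). Black points are among the 9 genes, grey points are relatives, crosses are genes not tested, and the dashed line is the median of all genes. All 6 alpha-class genes tested lie below 0, while Gstm1 and Gstm3 lie above 0 among tested neighbours below 0. Gstm3 passed the filter on dim probes only through the colistin arrays, and gave 0.53 with normexp. Of the genes below 0, Gsta4 (-0.19 ± 0.34) and Gstm4 (-0.065 ± 0.47) lie within 1 SE of 0 and of the dashed line.

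Proximal tubule markers, which mark the segment where alpha-class enzymes are abundant, had a median log2 fold change of -1.03. Of 15 such genes 12 were negative, against 54.9% of all genes. In limma 2 fell (Slc22a6 and Aqp1), against 0.540% of all genes, and 0 rose. In 8 of the 15 the colistin arrays lay below the saline arrays without overlap, against 11.7% of all genes. In 1 they lay above, against 6.89%. The summed level of the 15 markers, relative to each array's 75th percentile, was 831 to 1260 on saline arrays and 334 to 583 on colistin arrays. The 4 alpha-class members had a median of -1.15 beside it, and Slc34a1 and Lrp2, bright markers of the segment, gave -0.91 and -0.63 (limma adjusted p = 0.208 and 0.265). The other 3 markers had positive values, Slc7a9 at 1.34 without overlap between groups, Cubn at 1.25 and Slc5a2 at 1.14 (limma adjusted p = 0.129, 0.388 and 0.2), and with normexp 2 markers of the segment were called higher and 6 lower. The part of proximal tubule content in the alpha-class values was not tested, and in whole tissue fewer cells of a type and less RNA per cell cannot be told apart. Thick ascending limb and collecting duct markers had medians of -1.64 over 7 genes and -2.17 over 10 genes, the former moving to -2.62 without saline array 4, -2.58 without colistin array 3 and -2.57 without colistin array 4, and Gstm1 and Gstp1 had positive values beside them. Of these markers, Egf of the thick ascending limb and Slc26a4 of the collecting duct fell in limma. Endothelial markers had a median of -2.86, with 8 of 8 negative, and 4 fell (Flt1, Kdr, Pecam1 and Plvap). Of the 8, Tie1 and Tek had 0 and 1 colistin arrays above background and passed the filter only through saline. The sign of both thus follows partly from the filter. With probes well above background on all 8 arrays, 6 endothelial markers remained, with a median of -2.86. The summed level of the endothelial markers was 33.5 to 53.3 on saline and 4.82 to 7.69 on colistin arrays. Leukocyte markers had a median of -1.35, with 7 of 7 tested negative, 2 that fell (Cd4 and Ctss) and a summed level of 16.8 to 25.8 on saline and 5.95 to 9.56 on colistin arrays. Tubular injury markers were positive in 11 of 11, with a median of 2.14, and 4 rose in limma (Anxa2, Havcr1, Lgals3 and Spp1). These counts of the marker lists stand beside 0.540% of all genes that fell and 1.46% that rose. A negative fold change was found for 54.9% of all genes. With normexp the median of the injury markers was 0.94 and that of the endothelial markers -1.88. With slide as a block 0 proximal tubule, 0 endothelial and 0 leukocyte markers passed in limma, against 1 of the thick ascending limb, 1 of the collecting duct and 3 of injury. The part of any of these lists in the transferase values was not tested.

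Around the transferases, 74 genes of 6 lists were tested and 2 changed, both of them higher, against 2.00% of all genes. With slide as a block 0 of the 74 changed. The 2 genes were Abcc2, which exports glutathione conjugates into the tubule lumen, and Srxn1, which encodes sulfiredoxin and repairs overoxidised peroxiredoxins. Abcc2 had log2 levels of -1.11, -0.17, -1.27 and 0.88 on saline and 3.31, 3.49, 3.13 and 1.86 on colistin arrays. All colistin arrays were higher, and it rose by 3.36 ± 0.58 (limma adjusted p = 0.0306), a call lost in 5 of the 8 fits that left out 1 array. Srxn1 rose by 5.59 ± 0.65 (limma adjusted p = 0.00846), with levels of -3.18 to -0.25 on saline and 3.03 to 4.39 on colistin arrays.

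The 7 efflux genes all had positive fold changes, with a median of 0.84, while with normexp Abcc5 gave -0.048 and the median was 0.30. Abcc3, for which 1 of the 4 saline arrays was above background, passed the filter on dim probes only through the colistin arrays. Its sign thus follows partly from the filter. Abcc3 gave 2.45 ± 0.67 (limma adjusted p = 0.106), and 0.11 with normexp. With probes well above background on all 8 arrays, 6 efflux genes remained, with a median of 0.58. Abcc6, another transporter of the same family, gave 0.84 ± 0.54 (limma adjusted p = 0.372). The mercapturate pathway, which trims the conjugates after export, had 10 of 12 negative values and a median of -0.67, and 0 passed in limma. Its members with the largest values were Dpep1, the brush-border dipeptidase, at -1.73 ± 0.38 (limma adjusted p = 0.0641), Kyat1, a cysteine conjugate beta-lyase, at -1.16 ± 0.40 (limma adjusted p = 0.157) and the aminoacylase Acy1 at -1.14 ± 0.86 (limma adjusted p = 0.443). Ggt1, the gamma-glutamyltransferase that begins this trimming, gave 0.26 ± 0.54 (limma adjusted p = 0.788).

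Of 12 genes of glutathione synthesis and recycling, 6 were positive and 6 negative, with a median of -0.11, and 0 passed in limma. The subunits of glutamate-cysteine ligase, which makes the first step of synthesis, gave 0.75 ± 0.79 for Gclc and 1.19 ± 0.69 for Gclm. Glutathione reductase, Gsr, gave -1.11 ± 0.43 (limma adjusted p = 0.186), and the cystine carrier gene Slc7a11 gave -1.06 ± 0.48 (limma adjusted p = 0.234). Of 12 regulators 0 passed in limma, and Nfe2l2 gave 0.42 ± 0.52 (limma adjusted p = 0.649). Keap1 gave 1.57 ± 0.58 without overlap between groups (limma adjusted p = 0.175), Nr1i3 gave 1.29 ± 0.75 and Mafk -1.10 ± 1.35.

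Among 17 other targets of NRF2, 12 were positive and the median was 0.25. In limma 1 rose, against 1.46% of all genes, and 0 fell, against 0.540%. Besides Srxn1, the glutathione peroxidase gene Gpx2 gave 4.12 ± 1.13 (limma adjusted p = 0.105), with levels of -2.99, -0.24, 1.39 and 2.94 on saline and 4.10 to 4.92 on colistin arrays. The aldo-keto reductase gene Akr1b8 gave 2.10 ± 0.64 and the epoxide hydrolase gene Ephx1 1.72 ± 0.51 (limma adjusted p = 0.13 and 0.124). The widely used targets Nqo1, a quinone reductase, and Hmox1, heme oxygenase 1, gave -1.58 ± 0.83 and 0.30 ± 0.45 (limma adjusted p = 0.286 and 0.706). 

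**Figure D4:**
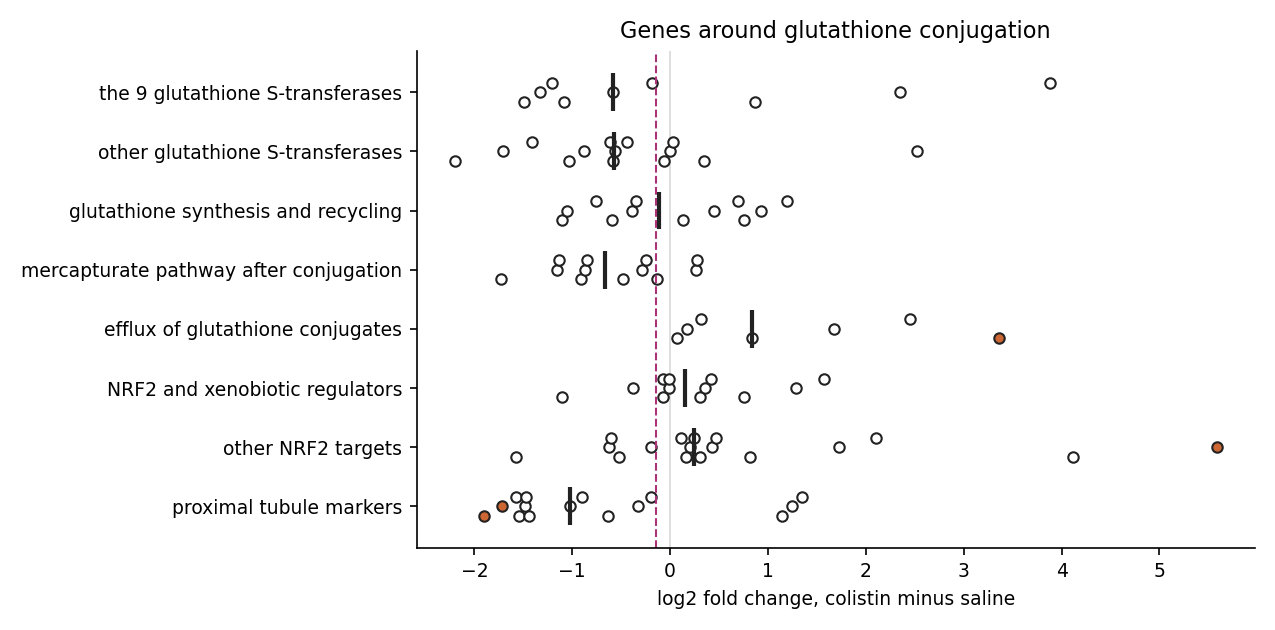
Log2 fold change of colistin minus saline (horizontal axis) for each gene of the lists around glutathione conjugation and for proximal tubule markers. Each circle is 1 gene, filled where limma's adjusted p was under 0.05, the black bar is the list's median and the dashed line the median of all genes. Abcc2, Srxn1, Slc22a6 and Aqp1 are filled, and all 7 efflux genes lie above 0, though with normexp Abcc5 did not. Of the 7, Abcc3 passed the filter on dim probes only through the colistin arrays.

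The genes whose profiles over the 8 arrays were nearest to a member, by root mean square difference after centring each gene, were taken from 9261 genes well above background on all arrays. For Gsta1 these included Mpzl1 and Mmd, both 0.27 log2 units apart. For Gstp1 they were Cct4, Rnh1 and Sirpa at 0.36 to 0.39, and for Mgst1 they were Slc20a2, Gemin6 and Nubp1 at 0.24 to 0.39. For Gstm1 they were Rrm2, Uchl3 and Pfkp at 0.62 to 0.87, wider than for the other 3.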

How the data were processed

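The deposited scanner tables hold linear spot intensity. The submitters' processing notes name Agilent Feature Extraction 10.5, and per the file headers it corrected background and spatial trend within each array, with no scaling between arrays. The deposited table of the series holds log2 values whose scale no label states. Its column differences correlated with those of the scanner values at 0.99986 or above, and its probes were centred on their medians over the arrays.

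Control spots and 257 to 461 outlying spots per array were left out, spots of a probe were averaged, and no spot was saturated. A probe counted as well above background where any of its spots did, a definition settled after several had been tried. A majority of spots gave 249 genes changed in place of 248 and 0 of the 9 members. Values are log2 processed signals from which the array's own 75th percentile, without control probes, was subtracted. A probe was kept if 3 or more of the 4 arrays in one of the groups had it well above background, and the brightest stood for a gene. Of 30367 probes, 18643 were named by RefSeq accession from a table of GRCr8, used for names and gene order. Sequences came from RefSeq promoter windows of that build. Groups were compared with lmFit and eBayes of limma 3.58.1 in R 4.3.3, two-sided, and pairs of genes by exact permutation of the 8 arrays in scipy 1.17.1. The fit was tested on simulated data. The planned normexp used the median spot signal, since the tables hold no mean. All 9 genes are named. Of the other lists, the genes that passed, up to 3 per list with the largest fold change and a fixed few are named, and 2 genes that this rule selects are not reported here. The members and lists were chosen with earlier results of these data known, and the ratios of pairs and the printed sequences were added after the values were seen. Same-numbered arrays did not deviate together (r from -0.02 to 0.013), so the numbers were not taken as pairs.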

Additional observations from a re-analysis of the deposited data

Results flagged for a closer look

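Among 18 groups of 4 arrays checked, 1 sample lay far from the other 3 in 2 of them, by the ratio of its gap to the range of the group. Chance gives about 1 such case in 20 groups. Gstm1 on saline array 1 was -1.18, against 2.89 to 3.48 on the other saline arrays, and without that array the log2 fold change was 2.78. Gsta3 on colistin array 1 was 0.051, against 0.82 to 0.88 on the other colistin arrays, and without that array the fold change was -1.003 (limma adjusted p = 0.225).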

How the results depend on the processing

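Over all genes 248 changed, against 3390 with normexp, 40 with slide as a block, 143 without saline arrays 1 and 4 together and 78 to 255 with 1 array left out, where the counts without colistin arrays 1 to 4 were 98, 106, 110 and 78. With the replicate number as a block 5 changed, though no label says that the numbers pair the samples. Of the calls, 73.0% were higher, against 20.2% with normexp, 87.5% with slide as a block and 59.6% where probes had to be well above background on all 8 arrays. The median of all genes was -0.34 with normexp. Of the 9 transferases 0 changed, against 1 with quantile normalization, 1 with array weights and 0 to 1 with 1 array left out. With normexp 4 of the 9 changed, in a setting where 3390 of all 12411 genes were called. The 4 with normexp were Gsta1 (-1.32), Gsta3 (-1.03), Gstm1 (3.77) and Gstp1 (2.34), and Gstp1 gave 2.40 with quantile normalization and 2.43 with array weights. With 1 array left out Gstm1 gave 2.78 to 4.34 and Gstp1 2.01 to 2.72. Gstk1 gave -1.27 to 0.30, the one sign that turned among the 9 over the 20 alternatives. The Gsta2 to Gsta3 ratio turned to -0.24 without saline array 1 and -0.031 without colistin array 3, in a range up to 0.42 with 1 array left out. Of the 74 genes around them 2 changed, against 17 with normexp, 4 with the mean of a gene's probes, 0 with slide as a block, 0 with the replicate block and 1 to 3 with 1 array left out. The causes were not tested. No member was near background or saturated.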
